A study of Mus musculus with 25 samples.

Results

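Regulators of cytokine mRNA stability were examined in H3K27ac HiChIP data from mouse CD8+ T cells. The genes are Arid5a, Zc3h12a, Zc3h12d, Rc3h1, Zfp36, Zfp36l1 and Zfp36l2, 7 of 21900 annotated protein-coding genes. For each gene, all pairs of 1 kb bins were taken in which at least 1 bin overlaps the gene's mm10 span extended by 5 kb on each side. This window was met by 514 of the 121571 pairs listed in any library and by 176 of the 28033 pairs listed in all 6 libraries. Of the 7 genes, 6 had listed pairs and Rc3h1 had none in any library.

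HiChIP joins chromatin conformation capture to immunoprecipitation, so that a contact is a read pair linking a pair of bins in chromatin that carries the precipitated mark, here the active enhancer and promoter mark H3K27ac. The cells were splenic CD8+ T cells of C57BL/6J mice that had been pre-activated; the protocol describes stimulation for 2 days and a rest of 4 h before IL-2 was added. The 6 libraries cross 2 treatments (IL-2 and untreated control) with 3 genotypes, namely CRISPR deletion of an intronic element of the Il2ra super-enhancer (intron deletion), CRISPR deletion of an upstream element (upstream deletion), and wild type (WT). The labels give neither sex nor age of the mice, nor the extent of each deletion, the number of founder lines, or the dose and duration of IL-2 for the HiChIP cells. The deposited file names mark these libraries as replicate 2, and no other replicate was analysed here. With 1 library for each genotype and treatment, IL-2 was compared with control over 3 libraries each and each deletion with WT over 2 libraries each.

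Cytokine mRNAs are short-lived because proteins that read stem-loops and AU-rich elements in them recruit nucleases or deadenylases. Arid5a is the exception among the 7, since it binds such stem-loops and protects the transcript. Zc3h12a (Regnase-1) is an endoribonuclease that cuts stem-loop transcripts and is itself cut by the paracaspase Malt1 after T cell receptor engagement, and Zc3h12d (Regnase-4) belongs to the same family. Rc3h1 (Roquin-1) binds stem-loop decay elements. Zfp36 (tristetraprolin), Zfp36l1 and Zfp36l2 bind AU-rich elements and bring in the CCR4-NOT deadenylase, and in T cells they restrain cytokine output and proliferation. The data describe the H3K27ac contacts of these genes, not their RNA or protein.

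The stretches that precede 3 of the 4 genes with a called change are shown because their H3K27ac coverage peaked at or next to the annotated start. The letters are from RefSeq (GRCm38.p6), written 5′ to 3′ in the direction of transcription, and end at the base before the annotated gene span. Capitals mark the STAT-type motif TTCNNNGAA.
Arid5a (chr1:36307483-36307732, plus strand): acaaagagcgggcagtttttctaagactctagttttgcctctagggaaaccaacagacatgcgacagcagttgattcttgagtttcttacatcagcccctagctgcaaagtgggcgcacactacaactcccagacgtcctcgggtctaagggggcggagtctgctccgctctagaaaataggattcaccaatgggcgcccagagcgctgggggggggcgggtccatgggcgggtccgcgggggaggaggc
Zc3h12d (chr10:7832220-7832322, plus strand): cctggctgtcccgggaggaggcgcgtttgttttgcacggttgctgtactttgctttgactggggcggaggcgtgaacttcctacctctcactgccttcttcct
Zfp36 (chr7:28379229-28379478, minus strand): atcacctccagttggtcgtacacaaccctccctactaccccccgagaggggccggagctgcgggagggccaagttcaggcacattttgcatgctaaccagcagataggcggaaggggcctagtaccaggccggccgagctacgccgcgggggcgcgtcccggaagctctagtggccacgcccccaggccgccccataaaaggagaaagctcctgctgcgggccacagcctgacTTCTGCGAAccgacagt

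RefSeq promoter windows were matched for 6 of the 7 genes, all but Zfp36l2. The 250 bases before the start were searched on both strands for 3 motifs that do not overlap one another in these windows: TTCNNNGAA (the STAT motif GAS), TGANTCA (AP-1) and TGACGTCA (CRE). Zfp36 held a GAS match from -17 to -9 relative to its start, and Zfp36l1 and Rc3h1 each held an AP-1 match. Arid5a, Zc3h12a and Zc3h12d held none of the 3. Of all 32851 promoter windows, 7.02% held the GAS letters, 6.75% the AP-1 letters and 1.55% the CRE letters.

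Library depth differed. Listed contacts ranged from 1314137 in the intron deletion control library to 3596995 in the WT IL-2 library, and no pair with under 20 contacts or under 5 kb was listed. Values below are therefore given as scaled contacts, that is, contacts summed over the pairs listed in all 6 libraries and divided by the library's TMM-adjusted size relative to the mean. Il2ra, the targeted locus, had 198 and 188 scaled contacts with IL-2 and without it in intron deletion cells, 323 and 290 in upstream deletion cells and 462 and 334 in WT cells (log2 fold change -1.05, SE 0.11, adjusted p = 1.09e-04 for the intron deletion over WT by edgeR's quasi-likelihood test). All 7 CD8+ T cell markers were measured, against 1 of 4 markers of CD4+ or regulatory T cells, 1 of 5 of B cells, 2 of 4 of NK cells, 2 of 5 of myeloid cells and 0 of 3 of erythroid cells. In bulk libraries, fewer cells of a type and less signal per cell cannot be told apart. The 2 intron deletion libraries stood apart from the other 4: 17.8% of all gene windows were called between intron deletion and WT, and 0.17% between upstream deletion and WT. Whether that split comes from the genotype or from how single libraries were made cannot be told apart.

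**Figure D1:**
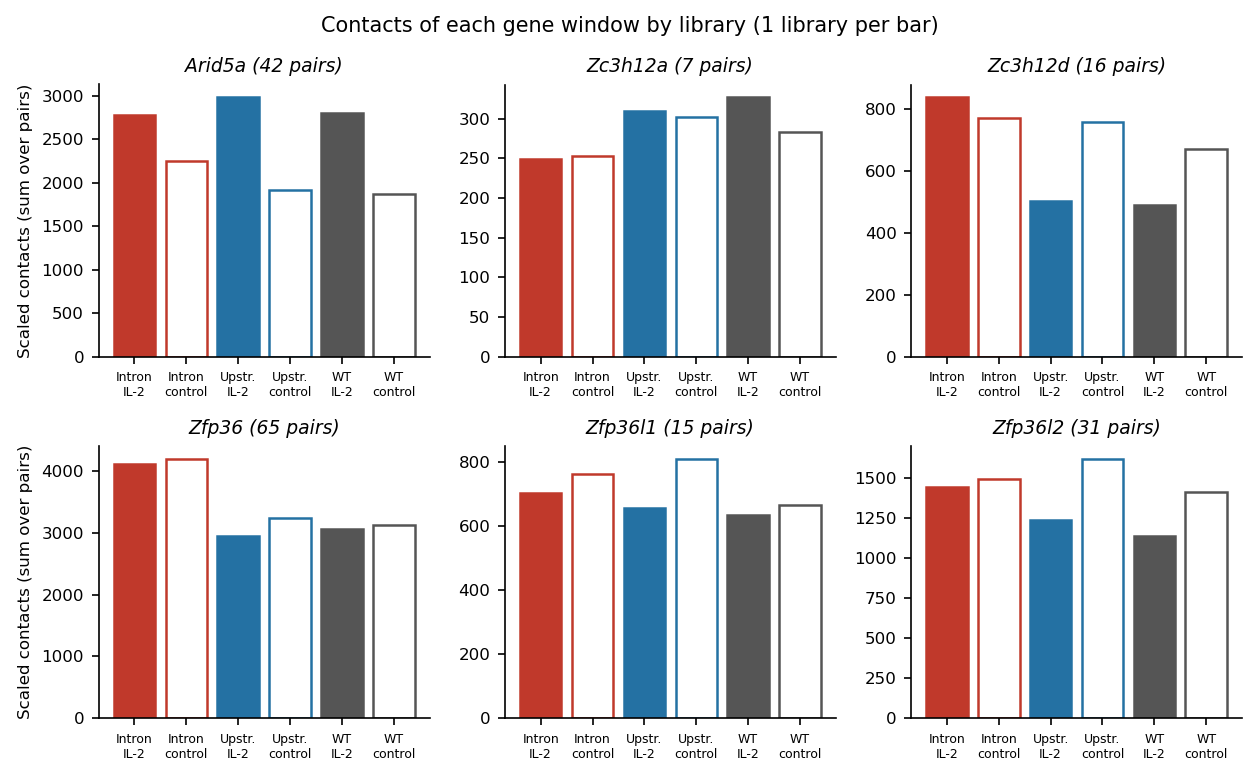
Scaled contacts (vertical axis, summed over the pairs listed in all 6 libraries) of the 6 genes with listed pairs, 1 bar per library, filled for IL-2 and open for control, red for intron deletion, blue for upstream deletion and grey for WT. The 3 IL-2 bars of Arid5a lie between 2779 and 2982, above its control bars, and the 2 intron deletion bars of Zfp36 are its tallest.

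Arid5a was the gene whose contacts rose with IL-2. It had 2779 scaled contacts in intron deletion cells with IL-2, 2982 in upstream deletion cells with IL-2 and 2799 in WT cells with IL-2, against 2256, 1918 and 1870 in the controls of those genotypes. Every IL-2 library was above every control library, and the intron deletion control was the highest of the controls. The log2 fold change was 0.51 (SE 0.065, n = 3 libraries each, adjusted p = 0.0106, edgeR quasi-likelihood test). Arid5a was the only one of the 6 measured genes past the threshold in this comparison, in which 3.55% of 3522 gene windows were called (2.33% higher, 1.22% lower). These were 82 windows higher and 43 lower, and with total-count scaling 65 higher and 76 lower; Arid5a kept its call there.

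The Arid5a call rested on few libraries. The fold change stayed above 0 without any 1 library, at 0.42 to 0.60, but the call was lost in 3 of these fits. It was 0.43 (adjusted p = 0.476, edgeR) without the upstream deletion IL-2 library, 0.42 (0.475) without the upstream deletion control and 0.46 (0.14) without the WT control. With unlisted pairs counted as 0 it was 0.49 (0.331). By DESeq2 over all 6 libraries it was 0.50 (adjusted p = 3.03e-05), and the call was kept.

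The called rises lay mainly in contacts between the Arid5a window and bins at lower coordinates. Arid5a lies on chromosome 1 at chr1:36307733-36324037, with Neurl3 33.1 kb before it and Kansl3 11.7 kb after it. Of its 42 pairs listed in all 6 libraries, 40 had an estimate above 0 with IL-2 and 18 were called higher, against 2.56% of all pairs called higher (3.3% in either direction). Of the 18, 17 joined the gene's window to bins at lower coordinates, and the 18 spanned 5 to 26 kb with log2 fold changes of 0.47 to 0.98. The calls were uneven between bins. The bin chr1:36308001-36309000, just inside the gene, anchored 10 of the 18 called pairs. The next bin, chr1:36309001-36310000, anchored 15 pairs, of which 1 was called. The bin with the annotated start, chr1:36307001-36308000, anchored 4 pairs, of which 3 were called.

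The strongest Arid5a pair joined chr1:36296001-36297000, which holds no annotated gene, to chr1:36308001-36309000, 12 kb away. It had 182 scaled contacts in intron deletion, 185 in upstream deletion and 168 in WT cells with IL-2, against 134, 111 and 112 in the controls (log2 fold change 0.59, SE 0.12, adjusted p = 2.62e-04, edgeR). The groups did not overlap. The pair with the greatest rise joined chr1:36297001-36298000 to chr1:36306001-36307000, the bin before the promoter. It had 78.9, 76.4 and 64.9 scaled contacts with IL-2 in intron deletion, upstream deletion and WT cells, against 38.9, 41.5 and 31.4 in the controls (log2 fold change 0.98, SE 0.18, adjusted p = 3.11e-05, edgeR). The longest pair listed in at least 3 libraries linked chr1:36308001-36309000 to Uggt1, 65 kb away, with 37 contacts in intron deletion, 24 in upstream deletion and 25 in WT cells with IL-2, and 20 in the upstream deletion control; the other 2 controls did not list it. DESeq2 called none of the 28033 pairs with IL-2, against 924 by edgeR, and the strongest pair's adjusted p was over 0.05 without any 1 of the upstream deletion or WT libraries (0.102 to 0.171).

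**Figure D2:**
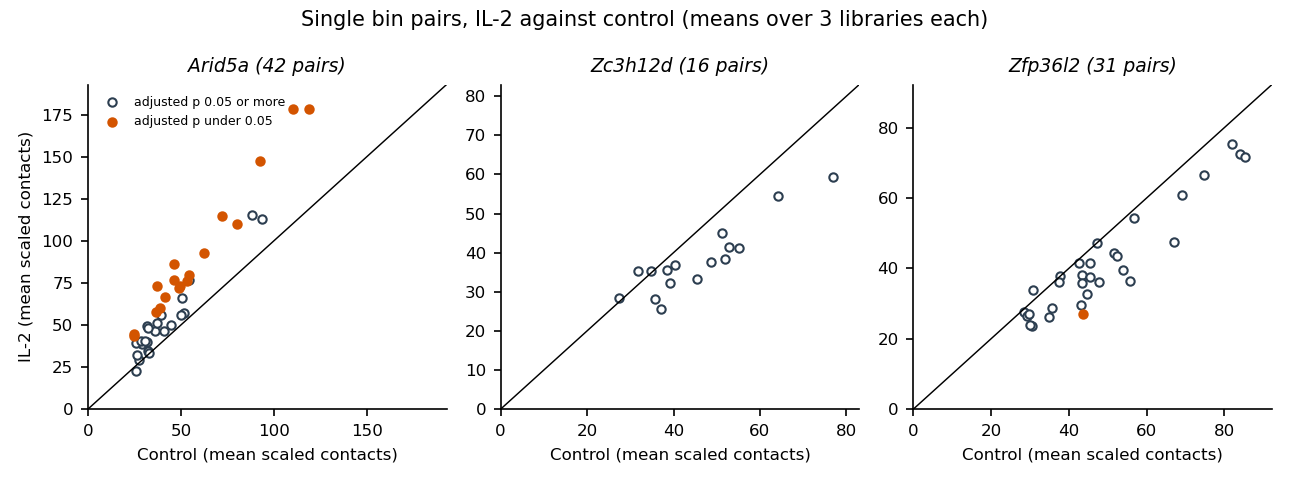
Single bin pairs of Arid5a, Zc3h12d and Zfp36l2, with the mean scaled contacts of the 3 IL-2 libraries (vertical axis) against those of the 3 control libraries (horizontal axis); the line marks equal values and filled points have an adjusted p under 0.05. For Arid5a, 40 of 42 pairs had an estimate above 0 and 18 were called, whereas 13 of 16 Zc3h12d pairs and 29 of 31 Zfp36l2 pairs had an estimate below 0, with 1 Zfp36l2 pair called.

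Coverage, the number of reads in a bin whatever its partner, was a second readout at the same place. All 11 Arid5a bins listed in every library had an IL-2 estimate above 0, from 0.14 to 0.56 on the log2 scale. In the peak bin chr1:36308001-36309000 the scaled coverage with IL-2 was 9085.2 in intron deletion, 9747.2 in upstream deletion and 8859.4 in WT cells. The controls had 8417.7, 6777.4 and 6149.0 (log2 fold change 0.39, SE 0.086, adjusted p = 0.0616, edgeR). None of the 18580 bins passed the edgeR threshold with IL-2, although 6801 had an unadjusted p under 0.05 and DESeq2 called 2172. Summed over the window, Arid5a coverage had a log2 fold change of 0.26 (SE 0.064, adjusted p = 0.0729, edgeR), in a comparison that called none of 4371 windows (1789 at an unadjusted p under 0.05, 833 called by DESeq2). The 833 were 420 higher and 413 lower, and Arid5a was among the higher (0.26, adjusted p = 0.00369, DESeq2). Zc3h12d (-0.30, 0.00438), Zfp36l2 (-0.27, 0.00343) and Zfp36l1 (-0.19, 0.0209) were among the lower.

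In contacts, the Regnase genes and the Zfp36 family did not pass the IL-2 threshold over all 6 libraries by the main fit. Zc3h12d had 837, 502 and 489 scaled contacts with IL-2 in intron deletion, upstream deletion and WT cells, against 770, 759 and 671 in the controls (log2 fold change -0.30, SE 0.11, adjusted p = 0.126, edgeR). The upstream deletion and WT libraries with IL-2 were the lowest, and the intron deletion library with IL-2 was the highest of all. Zfp36l2 had 1443, 1238 and 1138 scaled contacts with IL-2 in intron deletion, upstream deletion and WT cells, against 1496, 1620 and 1416 in the controls (log2 fold change -0.25, SE 0.065, adjusted p = 0.0559, edgeR). Its intron deletion library with IL-2 lay above the WT control, so the groups overlapped. Zfp36l2 lay just outside the threshold and passed it with DESeq2 size factors (adjusted p = 0.0493, edgeR), total-count scaling (0.036) or a 20 kb extension (0.0376). It did not pass by DESeq2 on contacts (adjusted p = 0.137) or with the gene span alone as window (log2 fold change -0.17, adjusted p = 0.21, edgeR). Nor did it with unlisted pairs as 0 (-0.53, 0.285) or as 19 (-0.15, 0.539). Without 1 library the estimate ran from -0.36 to -0.20, farthest from 0 without an intron deletion library. The bin chr17:84181001-84182000 in Gm41640, outside the gene, anchored 18 of its 31 pairs.

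Zfp36l1 had a log2 fold change of -0.16 (SE 0.063, adjusted p = 0.157, edgeR), with 704, 658 and 635 scaled contacts with IL-2 in intron deletion, upstream deletion and WT cells and 761, 809 and 667 in the controls. Its 15 pairs are the same as those of Gm52006, whose span begins 0.6 kb away, and none lies wholly inside the window, so its values belong to both genes. Zfp36 had a log2 fold change of -0.07 (SE 0.051, adjusted p = 0.482), and Zc3h12a, with 7 pairs and 195 to 406 contacts per library, one of 0.08 (SE 0.078, adjusted p = 0.563). In Zfp36 and Zfp36l1 the IL-2 and control libraries overlapped, and in Zc3h12a the intron deletion library with IL-2 was the lowest of the 6 and the WT library with IL-2 the highest.

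The response to IL-2 differed between intron deletion cells and the other genotypes at 3 of the 6 genes. The test set the intron deletion's log2 ratio of IL-2 over control against that of upstream deletion and WT cells together, and called 3.8% of 3522 windows (2.53% higher in the intron deletion, 1.28% lower). For Arid5a the scaled ratio of IL-2 over control was 1.23 in intron deletion cells (exact 95% interval 1.16 to 1.31), 1.56 in upstream deletion cells (1.46 to 1.65) and 1.497 in WT cells (1.42 to 1.58). The rise was thus smaller in the intron deletion, with a difference of -0.31 on the log2 scale (SE 0.067, adjusted p = 0.0242, edgeR). For Zc3h12d the ratio was 1.09 in intron deletion cells (0.979 to 1.21), 0.661 in upstream deletion cells (0.587 to 0.745) and 0.729 in WT cells (0.653 to 0.814), a difference of 0.64 (SE 0.095, adjusted p = 0.00475, edgeR). For Zfp36l2 the ratio was 0.964 in intron deletion cells (0.893 to 1.04), 0.764 in upstream deletion cells (0.707 to 0.826) and 0.804 in WT cells (0.747 to 0.865), a difference of 0.30 (SE 0.075, adjusted p = 0.0449, edgeR).

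The intervals cover counting error only, and the intron deletion's response comes from 1 library per treatment, so its own spread between animals is unknown. Zc3h12a (-0.15, adjusted p = 0.711), Zfp36 (0.05, 0.791) and Zfp36l1 (0.07, 0.843) did not pass. The same test with upstream deletion or WT cells set apart called no window at all by edgeR, with 109 and 64 at an unadjusted p under 0.05. The spread in these 2 fits rested on the difference in response between the intron deletion and the genotype left with it. For Zc3h12d the SE was 0.18 in both, against 0.095 with the intron deletion set apart. Their lack of calls therefore cannot show that only the intron deletion differs. With the gene span alone as window, the difference was 0.10 for Zfp36l2 (adjusted p = 0.827, edgeR) and -0.30 for Arid5a (adjusted p = 0.0546). For all 3 genes the call was lost when unlisted pairs were counted as 0, while the differences were larger: -0.66 for Arid5a (adjusted p = 0.247, edgeR), 1.04 for Zc3h12d (0.251) and 0.62 for Zfp36l2 (0.236). Counted as 19, they left Arid5a at -0.10 (adjusted p = 0.266, edgeR) and the other 2 past the threshold. In that setting Zfp36 (0.26, adjusted p = 3.32e-05, edgeR) and Zfp36l1 (0.21, adjusted p = 0.0198) passed as well, and 704 windows were called higher and 124 lower. In window coverage the 3 differences were -0.27 for Arid5a, 0.37 for Zc3h12d and 0.28 for Zfp36l2, all past the threshold (adjusted p = 5.95e-05, 1.06e-07 and 4.11e-05, edgeR), where 28.2% of windows were called (14% higher, 14.2% lower). Zfp36l1 also passed in coverage (0.17, adjusted p = 0.018, edgeR).

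**Figure D3:**
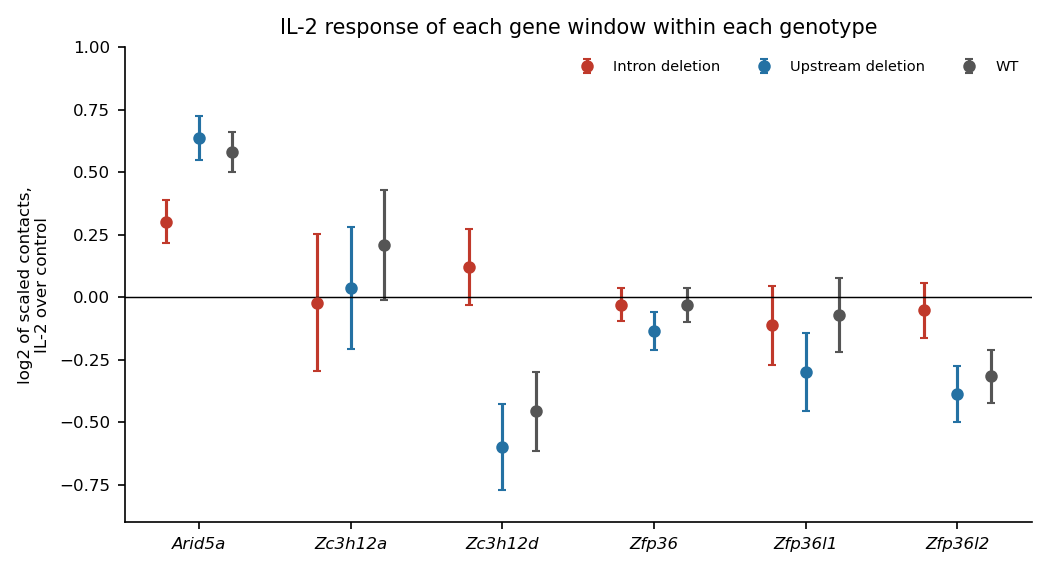
Log2 of scaled contacts with IL-2 over control (vertical axis) for each gene in intron deletion (red), upstream deletion (blue) and WT (grey) cells; points are ratios of single libraries and bars are exact 95% intervals for counting error. Zc3h12d lies at 0.12 in intron deletion cells and at -0.60 and -0.46 in upstream deletion and WT cells, and Arid5a lies above 0 in all 3.

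Single pairs showed the same split. With IL-2, 9 of the 16 Zc3h12d pairs were higher in intron deletion cells, 0 in upstream deletion cells and 2 in WT cells. For Zfp36l2, 12 of 31 pairs were higher with IL-2 in intron deletion cells, 3 in upstream deletion cells and 3 in WT cells. For Arid5a, the median log2 ratio over its 42 pairs was 0.22 in intron deletion cells, 0.71 in upstream deletion cells and 0.60 in WT cells. These are descriptions of single libraries.

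With both intron deletion libraries left out, a choice made after seeing the data, 4 of the 6 genes passed between IL-2 and control over the other 4 libraries, where 22.4% of 4131 windows were called. Arid5a was higher (log2 fold change 0.57, adjusted p = 2.55e-06, edgeR). Zc3h12d (-0.51, 5.85e-05), Zfp36l2 (-0.32, 1.38e-04) and Zfp36l1 (-0.21, 0.0154) were lower. Zfp36 and Zc3h12a did not pass there either.

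Zfp36 and Zc3h12d had more contacts in intron deletion cells than in WT cells. Zfp36 had 4108 and 4193 scaled contacts with IL-2 and without it in intron deletion cells, 2945 and 3237 in upstream deletion cells, and 3056 and 3126 in WT cells. Both intron deletion libraries were above the other 4, which lay close together. The log2 fold change of the intron deletion over WT was 0.43 (SE 0.062, n = 2 libraries each, adjusted p = 9.37e-04, edgeR), in a comparison that called 17.8% of windows (9.45% higher, 8.35% lower). Zc3h12d had a log2 fold change of 0.50 (SE 0.13, adjusted p = 0.0193, edgeR). Its 2 intron deletion libraries, at 837 and 770 scaled contacts, lay above its WT libraries, at 489 and 671, but the upstream deletion control reached 759.

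The other 4 genes did not pass between intron deletion and WT. The estimates were -0.29 for Zc3h12a (SE 0.095, adjusted p = 0.0585, edgeR), 0.22 for Zfp36l2 (SE 0.0795, adjusted p = 0.084), 0.17 for Zfp36l1 (SE 0.076, adjusted p = 0.148) and 0.13 for Arid5a (SE 0.079, adjusted p = 0.295). Zc3h12a lay just outside the threshold, and it passed with total-count scaling (adjusted p = 0.0498, edgeR) and in coverage (log2 fold change -0.18, adjusted p = 0.0199), where 40.3% of windows were called (20.2% higher, 20.1% lower). Zc3h12a did not pass by DESeq2 (-0.28, adjusted p = 0.416), nor with unlisted pairs as 19 (-0.11, adjusted p = 0.376, edgeR) or as 0 (-0.45, 0.196). Single intron deletion libraries decided other values. Arid5a was at 0.28 without the intron deletion IL-2 library (adjusted p = 2.09e-04, edgeR) and at 0.021 without the intron deletion control. Zfp36l2 was at 0.053 without the intron deletion IL-2 library and at 0.35 without the intron deletion control (adjusted p = 6.24e-04, edgeR), a setting in which Zc3h12a was at -0.33 (adjusted p = 0.0306). The Zc3h12d call was lost without the intron deletion IL-2 library (log2 fold change 0.16, adjusted p = 0.182) and without the WT IL-2 library (0.37, 0.133). It was also lost with unlisted pairs as 0 (adjusted p = 0.181) or as 19 (0.14), and the Zfp36 call with unlisted pairs as 19 (0.0809).

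Zfp36 lies at chr7:28376784-28379228, 4.1 kb after Plekhg2 and 6.0 kb before Med29. Its window takes in the part of Plekhg2 nearest to it and a tRNA gene. Of its 65 pairs, 60 had an estimate above 0 in intron deletion cells and 14 were called higher and 0 lower, against 6.27% of all pairs called higher and 5.03% lower (11.3% in all). The 14 spanned 5 to 10 kb, and the bin chr7:28381001-28382000 outside the gene on its promoter side anchored 5 of them. The bins chr7:28371001-28372000 and chr7:28372001-28373000, which overlap Plekhg2, anchored 11 and 13 of the 65 pairs, of which 3 and 0 were called higher.

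The strongest Zfp36 pair joined that bin to chr7:28375001-28376000 across the gene, 6 kb apart. It had 172 and 156 scaled contacts with IL-2 and without it in intron deletion cells, 136 and 143 in upstream deletion cells, and 126 and 138 in WT cells (log2 fold change of the intron deletion over WT 0.32, SE 0.15, adjusted p = 0.141, edgeR). Both intron deletion libraries were above the others, by less than the test required. Outside the window, the partner bins with the most contacts lay in neighbouring genes. The bin chr7:28392001-28393000, shared by Med29 and Paf1, was in 14 pairs with the window, and chr7:28350001-28351000 in Rps16, which encodes a ribosomal protein, in 12. The longest pair listed in at least 3 libraries reached Supt5, 43 kb away.

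Coverage gave the same direction at Zfp36. All 14 bins of the window were called higher in intron deletion than in WT cells, where 46.2% of 18580 bins were called (21.7% higher, 24.5% lower). In the bin that holds the start, chr7:28379001-28380000, the log2 fold change was 0.36 (SE 0.05, adjusted p = 0.00244, edgeR). The GAS match of the promoter printed above lies in this bin. Summed over the window, coverage was 0.46 higher on the log2 scale (SE 0.047, adjusted p = 0.00262, edgeR).

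**Figure D4:**
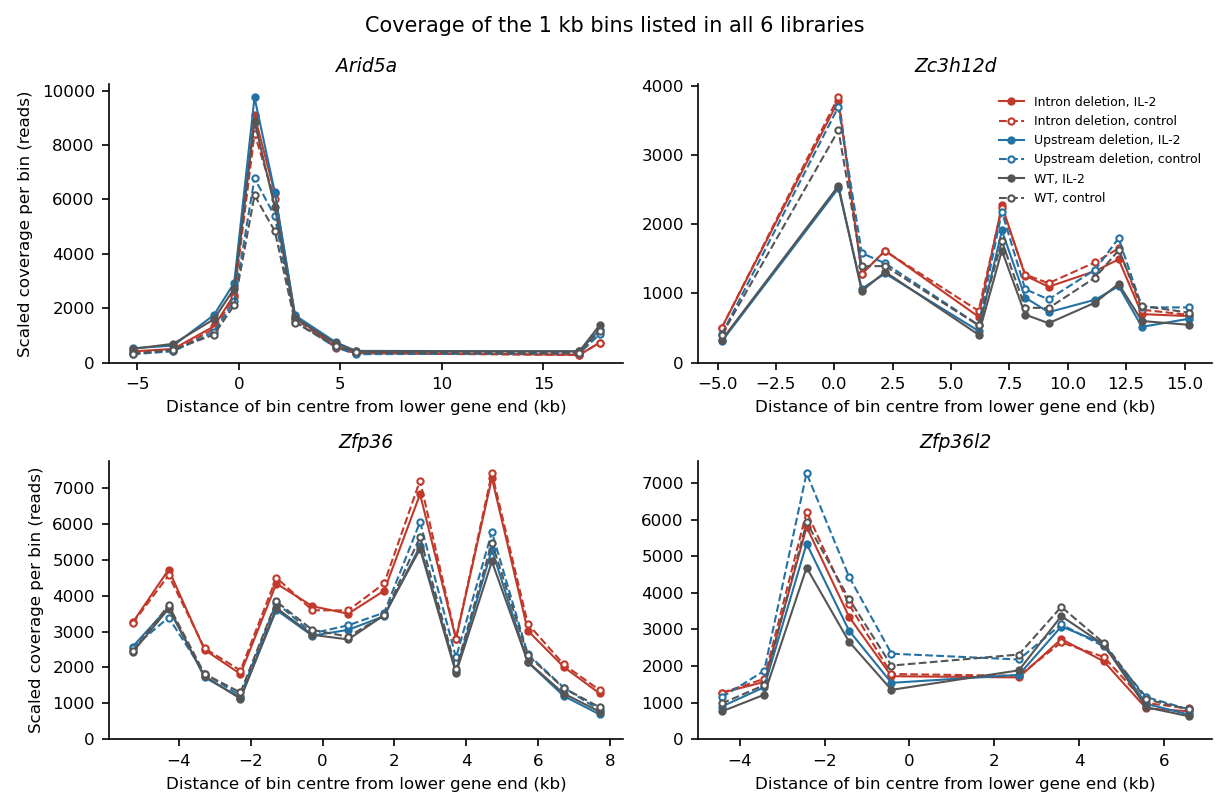
Scaled coverage of each 1 kb bin (vertical axis, reads) along the windows of Arid5a, Zc3h12d, Zfp36 and Zfp36l2, by distance of the bin centre from the lower end of the gene (horizontal axis, kb), with 1 line per library, solid for IL-2 and dashed for control; lines also join bins across gaps. The red intron deletion lines lie above the others in all 14 Zfp36 bins, and the solid lines of upstream deletion and WT lie lowest at the Zc3h12d start.

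Zc3h12d lies at chr10:7832323-7870397, 9.8 kb after Ppil4 and 35.3 kb before Tab2. All 16 of its pairs had an estimate above 0 in intron deletion cells, and the 4 that were called higher, against 6.27% of all pairs (11.3% in either direction), were anchored on the promoter bin chr10:7832001-7833000. The greatest difference was in the pair that joins this bin to Ppil4, 12 kb away. Its unscaled contacts with IL-2 and without it were 63 and 36 in intron deletion cells, 25 and 34 in upstream deletion cells, and 28 and 33 in WT cells (log2 fold change after scaling 0.98, SE 0.24, adjusted p = 0.00143, edgeR). Its strongest pair stayed inside the gene and joined the promoter bin to chr10:7839001-7840000. It had 78.9 and 86.8 scaled contacts in intron deletion, 51.3 and 80.8 in upstream deletion and 47.7 and 62.9 in WT cells, with IL-2 and without it (log2 fold change 0.60, SE 0.19, adjusted p = 0.0228, edgeR). The intron deletion control was the highest and the WT IL-2 library the lowest.

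Of the 12 Zc3h12d bins listed in every library, 8 were called higher in intron deletion than in WT cells, against 21.7% of all bins called higher (46.2% in either direction). All 12 had an IL-2 estimate below 0. At the promoter bin the scaled coverage with IL-2 was 3780.8 in intron deletion, 2518.1 in upstream deletion and 2553.0 in WT cells. The controls had 3839.5, 3693.2 and 3356.2 (log2 fold change -0.32, SE 0.0996, adjusted p = 0.0795 for IL-2, edgeR). The longest pair listed in at least 3 libraries reached Tab2, 124 kb away, with 22 to 27 contacts in 5 libraries.

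**Figure D5:**
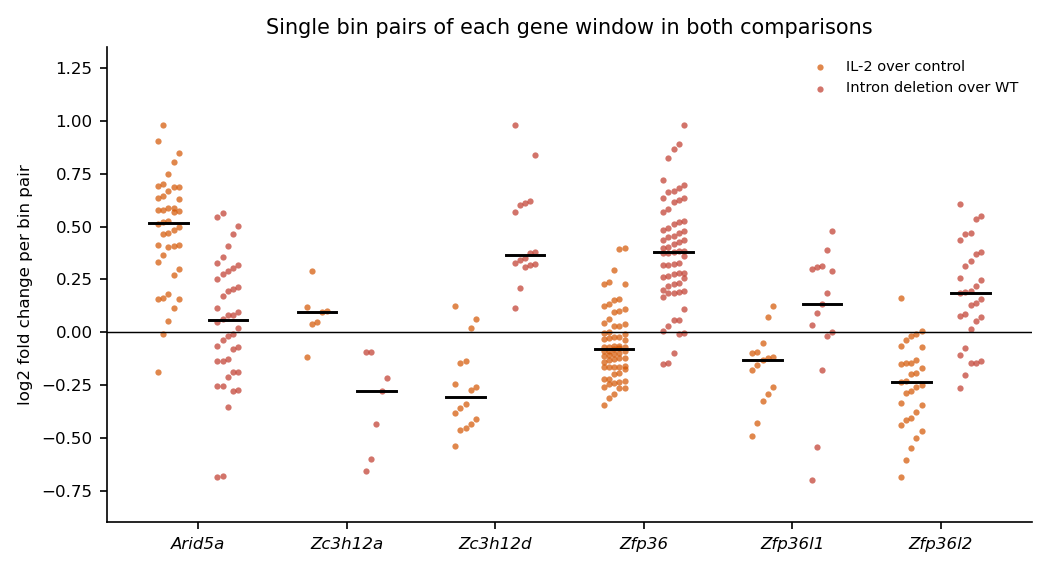
Log2 fold change of every pair listed in all 6 libraries (vertical axis) for each gene, with IL-2 over control (orange, left) and intron deletion over WT (red, right); black lines are medians. The medians of Arid5a are 0.52 and 0.06, those of Zfp36 are -0.08 and 0.38, and those of Zc3h12d are -0.31 and 0.36.

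The contacts of Zfp36l2, at chr17:84183924-84187947, spanned a longer distance than those of the other genes. The median distance of its pairs listed in all 6 libraries was 40 kb, against 7 to 13 kb for the other 5. Its window also holds part of Thada and 2 lncRNA genes, Gm41640 and Gm36279, and the bin with the highest coverage, chr17:84181001-84182000, lies in Gm41640. The strongest pair joined this bin to chr17:84119001-84120000, where no gene is annotated, 62 kb away. It had 96.3, 70.2 and 59.2 scaled contacts with IL-2 in intron deletion, upstream deletion and WT cells, against 80.3, 91.7 and 74.3 in the controls (log2 fold change -0.14, SE 0.15, adjusted p = 0.732, edgeR). The intron deletion library with IL-2 was the highest and the WT library with IL-2 the lowest, so the treatments overlapped.

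Of its 31 pairs, 29 had an IL-2 estimate below 0 and 1 was called lower, against 0.731% of all pairs called lower. That pair, the one with the greatest fall among the 31, joined chr17:84142001-84143000 in the gene Gm19696 to the Gm41640 bin, 39 kb away. It had 22.0, 29.3 and 29.6 scaled contacts with IL-2 in intron deletion, upstream deletion and WT cells, against 47.9, 41.5 and 41.9 in the controls (log2 fold change -0.68, SE 0.201, adjusted p = 0.0287, edgeR). The groups did not overlap, but the pair was picked for its fall, so the separation is no added evidence. With any 1 library left out, its adjusted p was 0.213 to 0.259. All 10 Zfp36l2 bins listed in every library had an IL-2 coverage estimate below 0, none of them called. A pair with 8430430B14Rik, 177 kb away, was listed in 5 libraries with 25 to 39 contacts.

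In the other genes the contacts were short or few. The pairs of Zc3h12a, at chr4:125118414-125127881, stayed within 40 kb and, but for 1 of 33, lay wholly inside its window. Those of Zfp36l1, at chr12:80107760-80113013, ran mostly toward 2310015A10Rik and a pair with Rad51b, 487 kb away, was listed in 3 libraries with 20 to 23 contacts. Rc3h1, at chr1:160906411-160974976, had no pair with 20 contacts in any of the 6 libraries, which, if the lists hold every pair of 20 or more contacts, sets an upper limit of 19 contacts for a pair 5 kb or more apart and says nothing of smaller counts or shorter distances.

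Between upstream deletion and WT cells, none of the 6 genes was called. Their log2 fold changes lay between -0.0015 for Zfp36 and 0.17 for Zfp36l1, with adjusted p from 0.393 to 0.993 (edgeR), in a comparison that called 0.17% of windows (5 higher and 1 lower, or 15 and 1 with DESeq2 size factors; 441 at an unadjusted p under 0.05, 2 called by DESeq2). Of their 176 pairs, 0 were called, against 0.0785% of all pairs (0.0464% higher, 0.0321% lower), and of their 60 tested bins 0 were called, against 1.69% of all bins. The SE of the window differences was 0.062 to 0.13. Without the intron deletion IL-2 library, Zfp36l1 (0.17, adjusted p = 0.0426, edgeR) and Zfp36l2 (0.17, adjusted p = 0.0106) passed, and without the intron deletion control Zfp36l2 passed (0.15, adjusted p = 0.0472); 383 and 224 windows were then called.

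The proteins that act with these regulators and the transcripts they control were examined as lists. Of 27 genes of the decay machinery, 9 had a window listed in every library. With IL-2, 1 of the 9 was called, and 1 between intron deletion and WT, against 3.55% and 17.8% of all windows. Btg2, an antiproliferative adaptor of the CCR4-NOT deadenylase, fell with IL-2 (log2 fold change -0.45, SE 0.0898, adjusted p = 0.0245, edgeR), and Pan2, a poly(A) nuclease subunit, was lower in intron deletion than in WT cells (-0.30, SE 0.091, adjusted p = 0.039). The list's median was -0.06 with IL-2, against 0.005 over all windows. None of the 6 measured of 12 partners and paralogs was called in any comparison.

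Of 13 genes that control the regulators by signalling, 8 were measured. With IL-2, 1 was called higher and 1 lower, where 2.33% of all windows were higher and 1.22% lower. Between intron deletion and WT it was also 1 and 1, where 9.45% and 8.35% of all windows were called. In the intron deletion's IL-2 response it was again 1 and 1, against 2.53% and 1.28%. With IL-2, Mapkapk3, a kinase downstream of p38, was higher (log2 fold change 0.43, SE 0.073, adjusted p = 0.0193, edgeR) and Tnfaip3, the ubiquitin-editing enzyme A20, was lower (-0.45, SE 0.083, adjusted p = 0.0193). Tnfaip3 was higher in intron deletion than in WT cells (0.60, adjusted p = 0.00221, edgeR), and its IL-2 response differed in the intron deletion by 0.47 (adjusted p = 0.00475, edgeR). Its scaled contacts were 1864, 1309 and 1064 with IL-2 in intron deletion, upstream deletion and WT cells, against 2054, 2051 and 1586 in the controls. Mapkapk2, the kinase that phosphorylates Zfp36, was lower in the intron deletion (-0.32, SE 0.074, adjusted p = 0.012, edgeR). Mapkapk3's response was smaller in intron deletion cells (-0.39, adjusted p = 0.0138, edgeR).

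Of 24 transcripts known as targets of such regulators, 15 were measured. With IL-2, 3 were higher and none lower, against 2.33% and 1.22% of all windows. Tnfrsf4, the costimulatory receptor OX40 and a target of Arid5a and Rc3h1, had a log2 fold change of 0.34 (SE 0.068, adjusted p = 0.0245, edgeR), Notch1 one of 0.26 (SE 0.052, adjusted p = 0.0245) and Gzmb, which encodes granzyme B, one of 0.28 (SE 0.057, adjusted p = 0.028). In intron deletion cells 5 of the 15 were lower than in WT cells and Notch1 was higher (0.23, adjusted p = 0.0263, edgeR), where 8.35% of all windows were lower and 9.45% higher. The 5 were Il2ra, described above, Irf4 (-0.62, adjusted p = 7.70e-04), Gzmb (-0.39, adjusted p = 0.00282), Tnfrsf4 (-0.40, adjusted p = 0.0075) and Tbx21 (-0.32, adjusted p = 0.00792). The IL-2 response of Tnfrsf4 was smaller in intron deletion cells, with a difference of -0.33 (adjusted p = 0.0229, edgeR). It was the only 1 of the 15 called there, against 3.8% of all windows. Tnf, with 200 pairs, had estimates of 0.09 with IL-2 (adjusted p = 0.363) and -0.10 in the intron deletion (adjusted p = 0.333).

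Markers moved between the same libraries. Of the CD8+ T cell markers, Cd8a (log2 fold change 0.56, adjusted p = 1.33e-04, edgeR) and Cd8b1 (0.44, adjusted p = 0.00118) were higher in intron deletion than in WT cells, as Zfp36 was. Of all windows, 9.45% were called higher and 8.35% lower in that comparison. Whether the Cd8a and Cd8b1 windows share pairs was not examined. The only measured B cell marker, Cd79a, was also higher (0.39, adjusted p = 0.00239, edgeR), with 3246 and 3038 scaled contacts in intron deletion cells and 2387 and 2423 in WT cells, with IL-2 and without it. Cd79b, Ms4a1 and Pax5 had no pair listed in all 6 libraries. The NK cell marker Nkg7, measured together with Lim2 and Cldnd2, was lower (-0.35, adjusted p = 0.00922, edgeR). In the IL-2 response of the intron deletion, 3 of the 7 CD8+ T cell markers were called higher, against 2.53% of all windows. They were Cd3d (difference 0.38, adjusted p = 0.0182, edgeR), Cd3e (0.34, adjusted p = 0.0344) and Cd3g (0.41, adjusted p = 0.0138), in the direction of Zc3h12d and Zfp36l2. Whether the windows of these 3 genes share pairs was not examined, so they may not be separate observations. None of the measured markers of the other cell types was called there. The part of these markers in the values of Zfp36, Zc3h12d, Zfp36l2 and Arid5a was not tested.

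The genes over 1 Mb away whose contacts varied most like those of a called gene were found by the root mean square difference of centred log2 scaled contacts over the 6 libraries. For Zfp36 they were Ikzf1 (0.0296), the window shared by Serp1 and Eif2a (0.0372) and Sit1 (0.0374), against a median of 0.252 over all windows. For Arid5a they were Treml2 (0.0766), the window shared by Dolk and Nup188 (0.0873) and Med20 (0.0912), against 0.306. For Zc3h12d they were Adamtsl4 (0.0512), Nsmaf (0.059) and the Nf1 window, which holds Evi2a, Evi2 and Evi2b (0.0617), against 0.337. For Zfp36l2, called only in the comparison of IL-2 responses, they were Jakmip1 (0.036), Gpr19 (0.0398) and Tgfbr2 (0.0419), against 0.232. The named genes were picked for the smallest differences, so their place below the median was fixed by that choice. The likeness is over the same 6 libraries, which differ in depth and genotype, and it is a description.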

How the data were processed

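The series holds 25 samples. The 6 H3K27ac HiChIP libraries were analysed; the 19 ChIP-seq samples were not used here. The authors deposited, for each library, a list of 1 kb bin pairs with a contact count and a coverage count per bin, in the layout of FitHiChIP. CASAVA, Bowtie2 2.2.6, HiC-Pro and the mm10 build are named in the submitters' processing notes, without roles or settings. The deposited lists held no pair under 20 contacts or under 5 kb, and their p-value columns were empty.

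Contacts of the pairs listed in all 6 libraries were summed over each protein-coding gene extended by 5 kb (GRCm38.p6 annotation), which gave 3522 windows. They were fitted with edgeR 4.0.16 in R 4.3.3 (TMM, quasi-likelihood, genotype plus treatment, 2 residual degrees of freedom, Benjamini-Hochberg adjustment over all windows, threshold 0.05). Pairs and bin coverage were fitted in the same way, and the interaction of treatment with 1 genotype left 1 residual degree of freedom. DESeq2 1.42.0, other scalings, windows and treatments of unlisted pairs, and each library left out were alternatives. Ratios within a genotype have exact 95% intervals, which cover counting error only. With 1 library per genotype and treatment, the p-values do not measure spread between replicates. The spread in the additive fit is how far the IL-2 response differs between genotypes. It holds technical variation and any true difference in response together, and such a difference widens the SE of the IL-2 and genotype comparisons.

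The members, lists, markers and tests were chosen with earlier results of these data known. Named were all members; of each list, the genes past the threshold in a comparison; for each member the strongest pair, the longest pair listed in at least 3 libraries and the pairs with the greatest rise and fall with IL-2, of which some are given; the bins with the start and the highest coverage; and the 3 most like genes of each called member. Other pairs and genes were named after their values were seen: the 12 kb Ppil4 pair, the partner bins of Zfp36, and Tnf.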

Additional observations from a re-analysis of the deposited data

Results flagged for a closer look

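At 3 genes the IL-2 response of intron deletion cells differed from that of upstream deletion and WT cells by a test of the difference itself (edgeR, interaction term, adjusted over 3522 windows, of which 3.8% were called). The difference of log2 ratios was -0.31 for Arid5a (adjusted p = 0.0242), 0.64 for Zc3h12d (adjusted p = 0.00475) and 0.3 for Zfp36l2 (adjusted p = 0.0449). The intron deletion control library, with 1314137 listed contacts, was the shallowest of the 6, and the part of depth in these differences was not tested.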

How the results depend on the processing

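IL-2 and control are matched within genotype, which is a term of every fit. No paired analysis was possible because, beyond this matching, the replicate number is the same in all 6 libraries, so a replicate block has nothing to separate. Over the alternatives, 423 values of single genes and pairs kept their direction and side of the threshold, 32 lost a call, 29 gained one and 32 changed sign. The cause of these changes was not tested.

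Windows called with IL-2 (125) became 57 by DESeq2, 61 with a mean of at least 100 contacts, 0 with unlisted pairs as 0 (pairs in any library or in at least 3), 20 with them as 19, 67 with no extension and 202 with 20 kb. In coverage they were 0 (edgeR) and 833 (DESeq2), and without both intron deletion libraries 925. Leaving out 1 library gave 0 to 948. For intron deletion over WT (627), the counts were 231 by DESeq2, 311 and 85 with unlisted pairs as 0 (any, at least 3), and 1763 (edgeR) and 1527 (DESeq2) in coverage; leaving out 1 library gave 190 to 1097. For upstream deletion over WT (6), they were 16 with DESeq2 size factors, 2 by DESeq2, 0 with unlisted pairs as 0 in both versions, 10 with 20 kb, and 0 (edgeR) and 194 (DESeq2) in coverage; leaving out 1 library gave 0 to 383. For the intron deletion's IL-2 response (134), they were 215 with DESeq2 size factors, 0 and 828 with unlisted pairs as 0 and 19, 69 with no extension, 246 with 20 kb and 1234 in coverage.

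Pairs called by DESeq2 were 0 with IL-2 (924 by edgeR), 119 for the intron deletion (3166) and 2 for the upstream deletion (22). Leaving out 1 library gave 41 to 1969, 514 to 3597 and 3 to 84. DESeq2 called 2172 bins with IL-2 (0 by edgeR) and 538 for the upstream deletion (314).

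Sign changes were in values near 0 in the main comparison or in uncalled ones. Zfp36 in the upstream deletion (-0.0015) became 0.0062 with DESeq2 size factors and by DESeq2, 0.25 and 0.085 with unlisted pairs as 0 (any, at least 3), 0.041 with no extension, 0.069 (edgeR) and 0.077 (DESeq2) in coverage, and -0.039 to 0.065 without 1 library. Zc3h12a in the upstream deletion became -0.030 with total-count scaling, -0.075 with unlisted pairs as 0 and -0.080 to 0.11 without 1 library. Arid5a in the upstream deletion became -0.014 with unlisted pairs as 19 and -0.028 to 0.17 without 1 library, and Zc3h12d -0.091 to 0.32. Zfp36 with IL-2 became 0.018 with unlisted pairs as 19, Zfp36l1 in the intron deletion -0.054 with no extension. With unlisted pairs as 0 the intron deletion's IL-2 response became 0.041 for Zc3h12a and -0.10 for Zfp36. Without 1 library, IL-2 values of single pairs ran from -0.24 to 0.29 (Zc3h12d, largest rise), -0.034 to 0.32 (Zc3h12a, strongest), -0.11 to 0.029 (Zfp36, strongest), -0.14 to 0.099 (Zfp36l1, strongest) and -0.00034 to 0.64 (Zfp36, largest rise).

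The Zfp36 call in the intron deletion was lost with unlisted pairs as 19 (log2 fold change 0.28, adjusted p = 0.0809, edgeR) and in no other alternative run.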
